A study of Mus musculus with 12 samples.

Results

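The genes described here are the matrix metalloproteinases (Mmp), the ADAMTS proteases (Adamts) and the tissue inhibitors of metalloproteinases (Timp). They were taken by name: every symbol in the count tables that begins with Mmp or Adamts and a digit, and the symbols Timp1 to Timp4. The rule used no measured value and gave 46 of 23238 symbols, of which 23 are Mmp, 19 are Adamts and 4 are Timp. Counts were high enough to test in 38 of the 46 (18 Mmp, 16 Adamts and 4 Timp), among 16484 genes tested in all. The libraries are RNA-seq of mouse lung, with 3 from lung that was not irradiated and 3 each from lung taken 8, 11 and 14 d after irradiation, 12 in all. The series' design text states that only irradiated regions of the lung were sampled. The sources used here do not give strain, age, sex, dose, beam field or where in the lung the unirradiated tissue was taken. The labels number the replicates without saying that they are separate animals, so each p-value rests on a spread among samples that may be technical. The tissue is bulk lung, in which fewer cells of a type and less RNA per cell cannot be told apart.

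Mmp proteins are zinc-dependent proteases, most of them secreted as inactive precursors, that together can cut nearly every protein of the extracellular matrix. Adamts proteins are secreted relatives with thrombospondin repeats; some cut the core proteins of proteoglycans, some trim procollagen, and Adamts13 cuts von Willebrand factor. Timp proteins block the active site of Mmp enzymes, and Timp3, which is held in the matrix, also blocks several Adamts and ADAM enzymes. In lung these families are followed in emphysema, acute injury and fibrosis, where matrix is both broken down and laid down.

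The 12 libraries held 19624554 to 27765751 counts each. On the first principal component of all genes, replicate 1 of 11 d scored 48.2, beside 32.3 to 49.7 for the 14 d group and 20.9 and 23.2 for the other 11 d libraries; where leaving out a library ended a call, the adjusted p without it is given.

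The Mmp genes rose far more often than they fell, and the inhibitors split. Against unirradiated lung, 10 of 18 tested Mmp genes were higher and 1 lower at 8 d, then 10 were higher and 2 lower at 11 d, and 10 were higher and 1 lower at 14 d. A gene was called when its adjusted p, from the quasi-likelihood test of edgeR with Benjamini-Hochberg adjustment over all genes tested, was below 0.05. Over all tested genes, 13.0% were called higher and 10.6% lower at 8 d, then 19.4% and 17.8% at 11 d, and 20.0% and 18.9% at 14 d. The median log2 change of the tested Mmp genes was 0.86 at 8 d, then 0.91 at 11 d and 1.27 at 14 d, beside 0.01, -0.01 and 0.01 for all tested genes. Of 16 tested Adamts genes, 2 were higher and 0 lower at 8 d, then 2 higher and 4 lower at 11 d, and 1 higher and 3 lower at 14 d, with medians of 0.01, -0.12 and -0.28. These Adamts counts came close to or below the shares of all genes, of which 23.6%, 37.2% and 38.9% were called in either direction. Of the 4 Timp genes, Timp1 rose and Timp3 fell at each time, Timp2 fell at 8 and 11 d, and Timp4 was never called. The 3 comparisons share the same unirradiated libraries and are not independent of each other. The count filter can keep a gene through its irradiated libraries alone, as with Mmp10, Mmp25 and Mmp27, so the Mmp counts are partly set by it. The plot of log2 changes shows the 38 genes family by family.

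**Figure D1:**
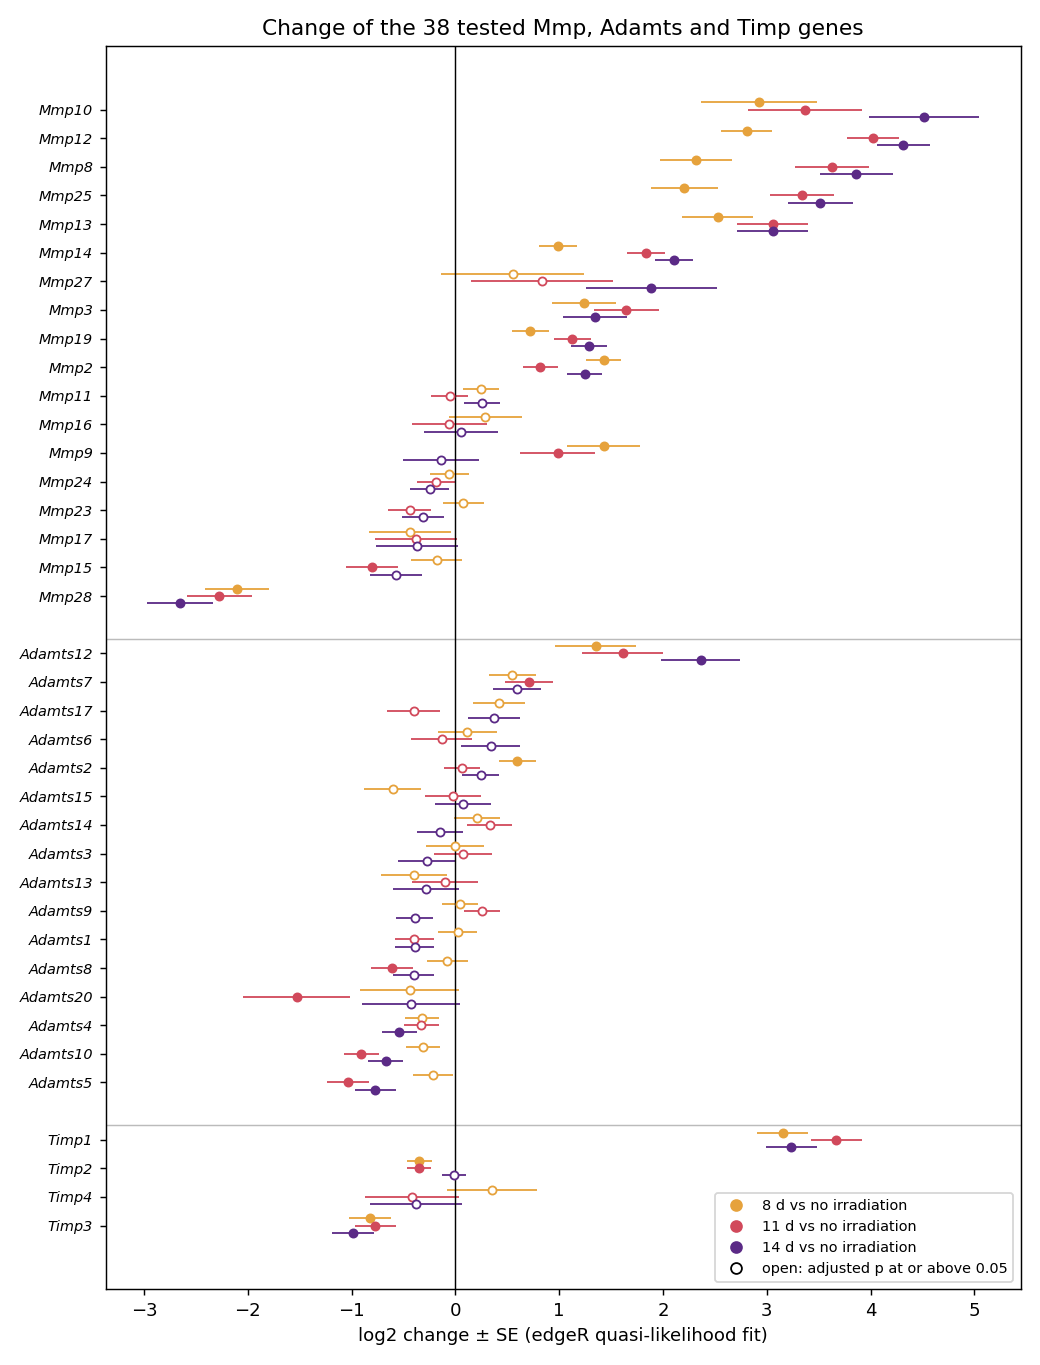
Log2 change with its standard error for each of the 38 tested genes, Mmp at the top, Adamts in the middle and Timp at the bottom, against unirradiated lung at 8 d (orange), 11 d (red) and 14 d (purple), 3 libraries a group. Filled points have an adjusted p below 0.05. The Mmp block reaches from -2.65 (Mmp28 at 14 d) to 4.51 (Mmp10 at 14 d), most Adamts points lie within 1 log2 unit of 0, and Timp1 stands alone among the inhibitors between 3.15 and 3.67.

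Across the 3 comparisons, 11 members were higher at every time: Mmp2, Mmp3, Mmp8, Mmp10, Mmp12, Mmp13, Mmp14, Mmp19, Mmp25, Adamts12 and Timp1. Mmp28 and Timp3 were lower at every time. Over all tested genes, 9.92% were higher and 8.49% lower at every time. In all, 24 members were called at 1 or more times, as were 48.7% of all tested genes, and 14 at none. Tested jointly over the 4 groups, 18 of the 38 members differed, beside 39.2% of all tested genes. Mmp10, Mmp25 and Mmp27, low without irradiation, passed the count filter through irradiated libraries, so these member counts are partly set by it. Of the 65 member calls in the 6 comparisons between groups, 48 were made under every alternative scaling, filter, tool and set of libraries tried. What ended any other is given beside the result or, for the replicate block, in the closing section.

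On chromosome 9, 10 Mmp genes lie side by side, and most of the tested ones were among those with the largest increases. They are Mmp13, Mmp12, Mmp1b, Mmp3, Mmp1a, Mmp10, Mmp8, Mmp27, Mmp20 and Mmp7, within chr9:7272514-7699585 of GRCm38 (427 kb), and no other protein-coding gene of the annotation lies between them. Of the 6 with enough counts, 5 were higher at 8 d, then 5 at 11 d and 6 at 14 d, with median log2 changes of 2.42, 3.21 and 3.46. Of the 12 tested Mmp genes elsewhere in the genome, 5 were higher and 1 lower at 8 d, then 5 and 2 at 11 d, and 4 and 1 at 14 d, with medians of 0.27, -0.06 and -0.04. Both sets are described without a test between them. The filter keeps a gene with enough counts in as few as 3 libraries. Mmp10 and Mmp27 in the cluster and Mmp25 elsewhere, low without irradiation, passed it through irradiated libraries. A gene low in every group drops out, so these counts and medians are partly set by the filter. Mmp1a, Mmp1b, Mmp20 and Mmp7, in the same stretch, had 1, 1, 2 and 4 counts over all 12 libraries.

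**Figure D2:**
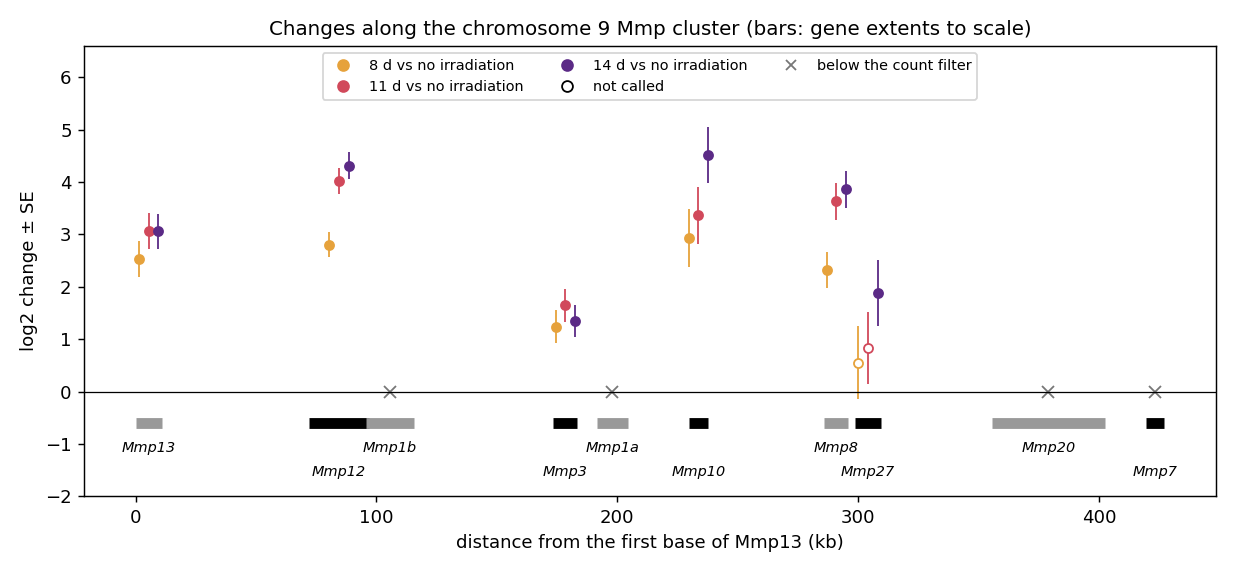
Log2 change with its standard error for the chromosome 9 Mmp genes at 8 d (orange), 11 d (red) and 14 d (purple), placed by distance in kb from the first base of Mmp13, with points of a gene set side by side. Bars below 0 are gene extents to scale, their 2 shades only separate neighbours, and crosses mark the 4 genes below the count filter. The 5 genes from Mmp13 to Mmp8 with filled points at all times lie among genes with almost no reads.

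Several promoters of this cluster are known targets of the transcription factor AP-1, so the letters TGACTCA, on either strand, were searched in the RefSeq promoter windows (GRCm38.p6, 250 bases before to 50 after the start). A window was at hand for 32 of the 46 members. TGACTCA was found in 7 of them, all 7 in the chromosome 9 cluster, where 10 genes have a window, and in 0 of the 22 members outside it. Over all genes in the table, 5.95% of 27025 hold it in some window, and 5.2% of the 32851 windows do. The 7 include 4 genes with enough counts to test (Mmp12, Mmp13, Mmp3 and Mmp10) and 3 without (Mmp1a, Mmp1b and Mmp7). The letters TATAAA, on either strand, were in 11 members, 9 of them in the cluster. They were in 15.7% of all genes and 13.6% of all windows. A match is a description of these letters, not evidence that a factor was bound. The 6 stretches of 120 bases shown end just before the RefSeq start and serve to compare the genes that rose (Mmp13, Mmp12, Mmp3, Mmp10 and Mmp8) with Mmp7, which had almost no reads. Capitals mark TGACTCA or its reverse complement TGAGTCA, and TATAAA, all sequences being on the plus strand of chromosome 9.
Mmp13 (chr9:7272394-7272513): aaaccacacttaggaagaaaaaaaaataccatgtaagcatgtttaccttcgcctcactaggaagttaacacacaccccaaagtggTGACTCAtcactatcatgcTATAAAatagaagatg
Mmp12 (chr9:7347254-7347373): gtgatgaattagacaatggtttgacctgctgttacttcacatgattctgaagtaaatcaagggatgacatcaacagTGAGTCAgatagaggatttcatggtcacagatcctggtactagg
Mmp3 (chr9:7445702-7445821): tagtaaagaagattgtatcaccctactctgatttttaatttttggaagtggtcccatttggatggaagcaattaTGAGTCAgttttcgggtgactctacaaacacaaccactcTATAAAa
Mmp10 (chr9:7502222-7502341): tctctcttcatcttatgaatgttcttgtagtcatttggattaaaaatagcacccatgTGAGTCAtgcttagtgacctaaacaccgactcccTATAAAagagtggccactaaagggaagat
Mmp8 (chr9:7558309-7558428): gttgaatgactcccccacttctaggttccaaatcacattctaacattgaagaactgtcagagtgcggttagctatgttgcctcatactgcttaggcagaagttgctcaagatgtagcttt
Mmp7 (chr9:7691970-7692089): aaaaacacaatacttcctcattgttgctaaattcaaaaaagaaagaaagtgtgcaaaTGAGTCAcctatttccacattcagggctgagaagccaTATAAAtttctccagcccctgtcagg
The match begins 35 bases before the start in Mmp13, 44 in Mmp12, 46 in Mmp3 and 63 in both Mmp10 and Mmp7. Mmp8 has neither set of letters in the stretch shown. Mmp12 has a further RefSeq start upstream, at base 7344397, and Mmp7 a further one downstream, at base 7692341. The windows at these further starts hold neither set of letters. For Mmp12 and Mmp7, the start shown was chosen because its window holds TGACTCA.

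Metalloelastase, Mmp12, is the elastin-cutting enzyme best known from macrophages, and its log2 change at 11 d was the largest of all members. Its level in CPM (the count relative to the scaled library size) was 4.75, 5.79 and 4.23 in the 3 unirradiated libraries, 27.5, 49.2 and 26.6 at 8 d, then 82.0, 77.6 and 80.7 at 11 d and 113, 75.2 and 106 at 14 d. Every irradiated library was above every unirradiated one, and every library of 11 or 14 d above every library of 8 d. The log2 change was 2.80 (SE 0.24, adjusted p = 4.58e-06), 4.02 (SE 0.25, adjusted p = 2.15e-07) and 4.32 (SE 0.25, adjusted p = 1.45e-07) at 8, 11 and 14 d, a 6.99-, 16.3- and 19.9-fold increase.

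Interstitial collagenases open the triple helix of fibrillar collagen, and the tested pair, Mmp8 and Mmp13, rose at every time. Mmp8, also called neutrophil collagenase, measured 1.81, 2.10 and 2.96 CPM without irradiation, 9.75, 16.1 and 8.63 at 8 d, then 39.9, 19.8 and 25.6 at 11 d and 38.5, 20.7 and 41.3 at 14 d. The groups of 8 d and later did not overlap with the unirradiated one, and the log2 change was 2.32 (SE 0.35, adjusted p = 3e-04), 3.63 (SE 0.35, adjusted p = 4.68e-06) and 3.86 (SE 0.36, adjusted p = 1.53e-06). Mmp13, the main collagenase of rodents, measured 0.565, 0.701 and 0.650 CPM without irradiation, 3.09, 4.95 and 3.08 at 8 d, then 5.16, 4.69 and 6.27 at 11 d and 4.497, 3.51 and 8.10 at 14 d. All irradiated libraries lay above 3 CPM and all unirradiated ones below 1 CPM. Its log2 change was 2.53 (SE 0.34, adjusted p = 0.000143), 3.06 (SE 0.34, adjusted p = 1.29e-05) and 3.06 (SE 0.34, adjusted p = 7.3e-06). The level of Mmp13 was thus low throughout, while that of Mmp8 reached a mean of 33.5 CPM at 14 d.

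Stromelysins have a wide range of matrix substrates and activate other Mmp precursors; Mmp3 and Mmp10 rose and Mmp11 was not called. Mmp3 measured 18.2, 27.9 and 12.5 CPM without irradiation, 35.0, 68.0 and 35.3 at 8 d, then 72.1, 47.6 and 63.7 at 11 d and 43.8, 40.6 and 64.7 at 14 d. Its lowest irradiated library stood above its highest unirradiated one, and the log2 change was 1.24 (SE 0.31, adjusted p = 0.00986), 1.65 (SE 0.31, adjusted p = 0.000926) and 1.35 (SE 0.31, adjusted p = 0.00307). Mmp10 was near the limit of detection without irradiation, at 0.264, 0.148 and 0.181 CPM, and measured 1.17, 2.57 and 0.875 at 8 d, then 2.70, 1.69 and 1.81 at 11 d and 5.08, 2.26 and 6.51 at 14 d. Its groups at 8 d and later also lay wholly above the unirradiated group. The log2 change of Mmp10 was 2.93 (SE 0.56, adjusted p = 0.00175), 3.36 (SE 0.55, adjusted p = 0.000289) and 4.51 (SE 0.53, adjusted p = 1.19e-05), the largest of all members at 14 d. Its value at 8 d was 2.34 without 8 d replicate 2, the highest of that group. Mmp27, also in the cluster, had means below 1 CPM: 0.261 ± 0.174, 0.379 ± 0.206, 0.466 ± 0.281 and 0.977 ± 0.406 CPM (SD, n = 3). It was called at 14 d only, at 1.89 (SE 0.63, adjusted p = 0.0277) on the log2 scale, and the call was lost without unirradiated replicate 2 (adjusted p = 0.0643) or 3 (0.0999) and without 14 d replicate 1 (0.0638) or 3 (0.107).

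Gelatinases cut denatured collagen and basement membrane collagen, and the pair moved differently in time. Mmp2, the constitutive gelatinase of stromal cells, measured 55.5, 49.1 and 61.7 CPM without irradiation, 143, 138 and 168 at 8 d, then 109, 75.6 and 109 at 11 d and 108, 149.6 and 137 at 14 d. No irradiated library overlapped with the unirradiated group, and the log2 change was 1.43 (SE 0.17, adjusted p = 4.92e-05), 0.82 (SE 0.17, adjusted p = 0.00154) and 1.25 (SE 0.17, adjusted p = 3.82e-05). Mmp9, the gelatinase of myeloid cells, measured 1.43, 2.44 and 4.66 CPM without irradiation, 8.67, 7.52 and 6.84 at 8 d, then 7.57, 5.20 and 4.10 at 11 d and 3.55, 2.04 and 2.21 at 14 d. It was above all unirradiated libraries at 8 d, overlapped with them at 11 d, and lay within their range at 14 d. The log2 change was 1.43 (SE 0.36, adjusted p = 0.00968) at 8 d, then 0.98 (SE 0.36, adjusted p = 0.043) at 11 d and -0.14 (SE 0.37, adjusted p = 0.802) at 14 d. The call at 11 d was lost without unirradiated replicate 1 (adjusted p = 0.154) or 2 (0.126), without 11 d replicate 1 (0.197) or 2 (0.0689), and with only the groups compared in the fit (0.0589).

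Membrane-type enzymes sit on the cell surface; Mmp14 and Mmp25 rose, Mmp15 fell at 11 d, and Mmp16, Mmp17 and Mmp24 were not called. Mmp14, the collagenase of the cell surface and an activator of the Mmp2 precursor, measured 69.5, 62.0 and 83.9 CPM without irradiation, 164, 157 and 107 at 8 d, then 299, 262 and 209 at 11 d and 335, 298 and 293 at 14 d. No 2 of the unirradiated, 8 d and 11 d groups overlapped, and the log2 change was 0.99 (SE 0.18, adjusted p = 0.00122), 1.84 (SE 0.18, adjusted p = 5.61e-06) and 2.10 (SE 0.18, adjusted p = 1.09e-06). Mmp25, a lipid-anchored enzyme of leukocytes, measured 0.377, 0.406 and 0.506 CPM without irradiation, 2.34, 1.62 and 2.04 at 8 d, then 5.16, 3.98 and 4.04 at 11 d and 6.97, 3.58 and 4.42 at 14 d. Its groups followed the same order with no overlap up to 11 d, and the log2 change was 2.20 (SE 0.32, adjusted p = 0.000246), 3.34 (SE 0.31, adjusted p = 3.43e-06) and 3.52 (SE 0.31, adjusted p = 1.14e-06). Mmp15 measured 86.5, 73.1 and 92.3 CPM without irradiation, 92.8, 45.4 and 84.1 at 8 d, then 39.1, 51.5 and 53.6 at 11 d and 59.4, 70.9 and 39.0 at 14 d. The 11 d and 14 d libraries lay below the unirradiated ones and those of 8 d overlapped with them; the log2 change was -0.18 (SE 0.25, adjusted p = 0.648), -0.81 (SE 0.25, adjusted p = 0.021) and -0.57 (SE 0.25, adjusted p = 0.0849). The call at 11 d was lost without unirradiated replicate 1 (adjusted p = 0.0559) or 3 (0.0629) and without 11 d replicate 1 (0.0932), and a call at 14 d was gained without 14 d replicate 2 (0.0401) or with only the groups compared (0.0389).

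Of the remaining Mmp genes, Mmp19 rose and Mmp28 fell at every time. Mmp19 measured 22.7, 21.5 and 15.1 CPM without irradiation, 32.4, 36.2 and 29.2 at 8 d, then 51.3, 36.6 and 41.5 at 11 d and 44.5, 55.1 and 45.2 at 14 d, with no overlap between the unirradiated group and any other. The log2 change was 0.72 (SE 0.18, adjusted p = 0.00836), 1.13 (SE 0.18, adjusted p = 0.000201) and 1.29 (SE 0.18, adjusted p = 4.48e-05). Mmp28, known as epilysin and made by epithelium and macrophages, measured 8.89, 11.99 and 6.47 CPM without irradiation, 2.72, 1.17 and 2.46 at 8 d, then 1.61, 1.78 and 2.28 at 11 d and 1.21, 1.77 and 1.34 at 14 d. All 9 irradiated libraries lay below all 3 unirradiated ones, and the log2 change was -2.10 (SE 0.31, adjusted p = 0.000241), -2.27 (SE 0.31, adjusted p = 6.92e-05) and -2.65 (SE 0.32, adjusted p = 1.34e-05), a 4.30-, 4.83- and 6.28-fold decrease. Part of its exon sequence, 12%, overlaps on the opposite strand with 1700020L24Rik, which fell too, from 3.77 to 0.579 CPM. Of Mmp19, 22.3% overlaps with Tmem198b, which was not called at any time. No source used here gives the strand setting of the counting, so reads in these shared bases may belong to either gene.

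**Figure D3:**
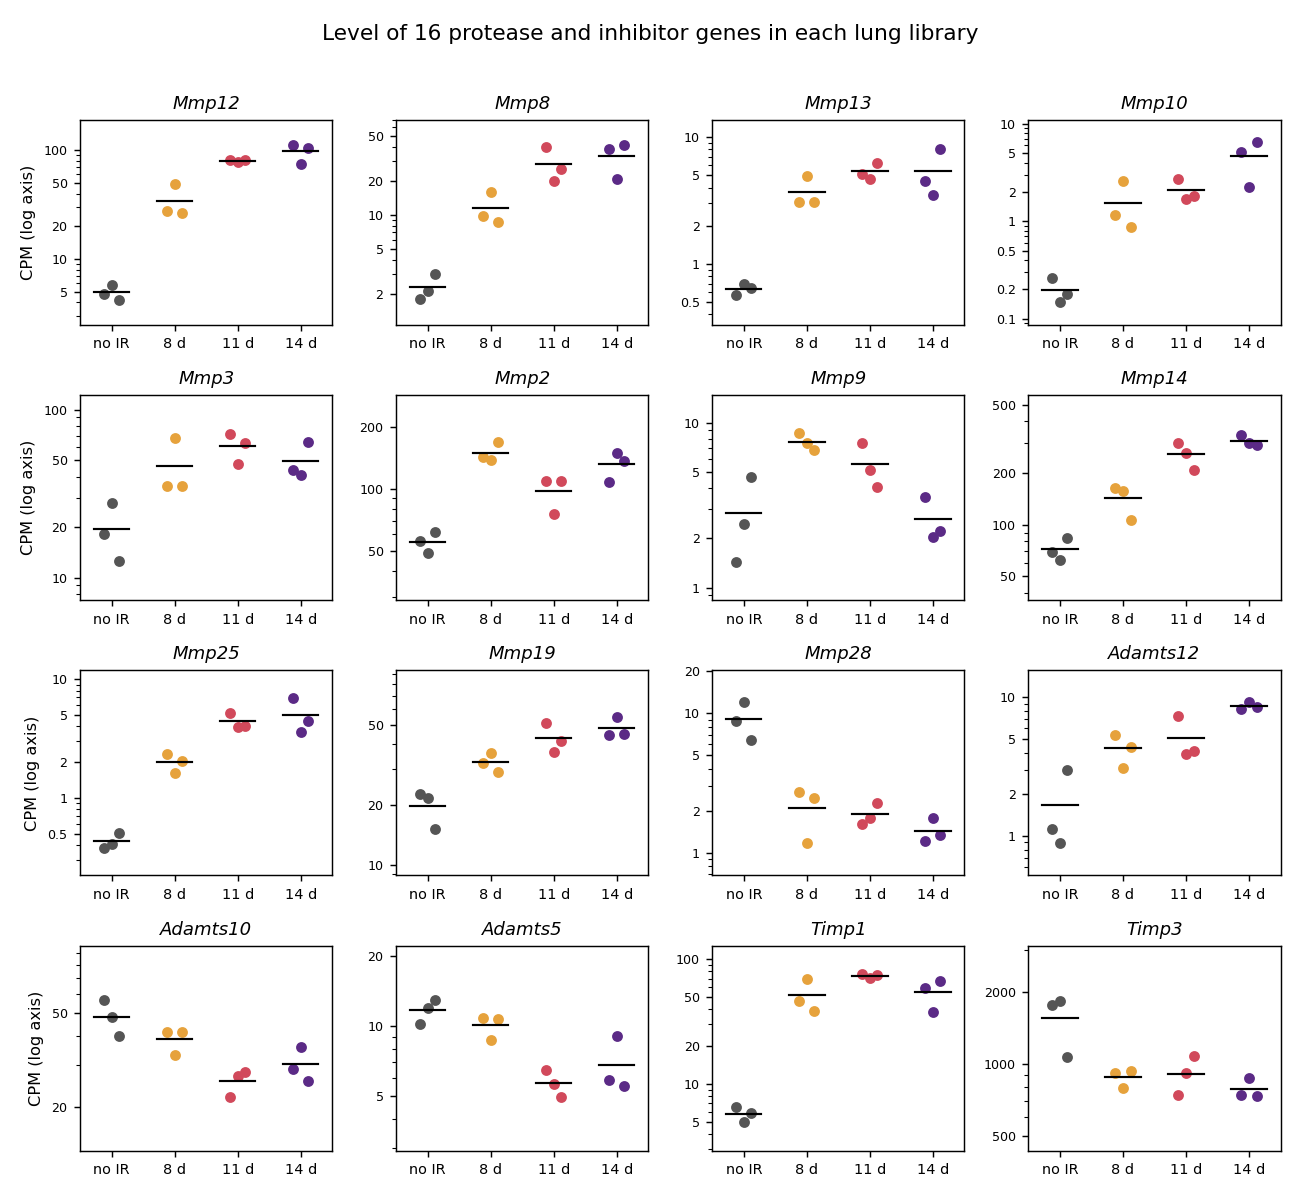
Level of 16 members in each library as CPM on a log axis, without irradiation (grey) and at 8 d (orange), 11 d (red) and 14 d (purple); points are the 3 libraries of a group and lines their mean. Mmp12, Mmp8, Mmp13, Mmp10, Mmp25 and Timp1 start from a few CPM or less and rise by the 8 d group, Mmp9 is highest at 8 d and back within the unirradiated range at 14 d, and Mmp28 and Timp3 lie lower after irradiation, with 1 low unirradiated library of Timp3.

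Adamts12 was the single Adamts gene called at all 3 times. It encodes a protease with a mucin-like domain and is made by mesenchymal cells. It measured 1.13, 0.886 and 2.999 CPM without irradiation, 5.39, 3.11 and 4.38 at 8 d, then 7.35, 3.89 and 4.10 at 11 d and 8.19, 9.203 and 8.51 at 14 d. Every irradiated library lay above every unirradiated one, of which replicate 3 was well above the other pair. The log2 change was 1.35 (SE 0.39, adjusted p = 0.0212), 1.61 (SE 0.39, adjusted p = 0.0048) and 2.36 (SE 0.38, adjusted p = 0.000207), and 2.08, 2.35 and 3.10 without unirradiated replicate 3. The call at 8 d was lost without unirradiated replicate 1 (adjusted p = 0.0927) or 2 (0.0883) and without 8 d replicate 1 (0.0703). Adamts7, its closest relative, measured 1.88, 1.62 and 1.95 CPM without irradiation, 3.14, 2.07 and 2.79 at 8 d, then 2.87, 2.81 and 3.27 at 11 d and 2.61, 3.24 and 2.38 at 14 d. All 9 irradiated libraries of Adamts7 were above the unirradiated ones, but the log2 change of 0.55 (SE 0.23, adjusted p = 0.0998), 0.71 (SE 0.23, adjusted p = 0.0247) and 0.59 (SE 0.23, adjusted p = 0.0523) was called at 11 d only. That call was lost without unirradiated replicate 1 (adjusted p = 0.0552) or 2 (0.0822) and without 11 d replicate 1 (0.0526) or 3 (0.0762), and Adamts7 was called at 14 d by DESeq2 (0.0492) and with median-of-ratios scaling (0.0488).

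Adamts2, which removes the amino-terminal propeptide of fibrillar procollagens, measured 32.6, 28.9 and 34.3 CPM without irradiation, 53.7, 37.1 and 54.1 at 8 d, then 36.9, 25.03 and 38.2 at 11 d and 37.96, 40.3 and 35.1 at 14 d. The 8 d libraries were above the unirradiated ones, and the log2 change there was 0.60 (SE 0.18, adjusted p = 0.0249). That call was lost without unirradiated replicate 1 (adjusted p = 0.0675) or 2 (0.098) and without 8 d replicate 1 (0.0761) or 3 (0.09), and the values at 11 d (0.06, SE 0.18, adjusted p = 0.804) and 14 d (0.24, SE 0.18, adjusted p = 0.309) were not called. The other procollagen propeptidases, Adamts3 and Adamts14, were not called at any time.

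Of the 7 proteoglycan-cleaving Adamts genes, 0 were called at 8 d, 3 were lower at 11 d and 2 lower at 14 d, shares of 0%, 42.9% and 28.6% beside 23.6%, 37.2% and 38.9% of all tested genes, with medians of -0.22, -0.40 and -0.40. Adamts5, the main aggrecanase of mouse cartilage, measured 10.2, 11.96 and 13.0 CPM without irradiation, 10.8, 8.74 and 10.8 at 8 d, then 6.47, 5.67 and 4.98 at 11 d and 5.89, 9.09 and 5.55 at 14 d. The libraries of 11 and 14 d lay below the unirradiated ones, and the log2 change was -0.22 (SE 0.19, adjusted p = 0.465), -1.03 (SE 0.20, adjusted p = 0.00106) and -0.77 (SE 0.20, adjusted p = 0.00608). Adamts4, the other classical aggrecanase, measured 6.63, 7.56 and 6.47 CPM without irradiation, 6.33, 5.49 and 4.75 at 8 d, then 5.03, 6.14 and 5.29 at 11 d and 4.72, 5.02 and 4.47 at 14 d. All its irradiated libraries were below the unirradiated ones, and it was called at 14 d (-0.54, SE 0.17, adjusted p = 0.0191), a call lost without unirradiated replicate 2 (adjusted p = 0.0727) and without 14 d replicate 1 (0.0538) or 3 (0.0593). Its log2 changes at 8 d (-0.32, SE 0.17, adjusted p = 0.188) and 11 d (-0.33, SE 0.17, adjusted p = 0.137) were not called.

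Adamts8, a gene that is high in lung among tissues, measured 20.3, 15.8 and 13.5 CPM without irradiation, 15.7, 13.9 and 17.4 at 8 d, then 9.30, 9.37 and 13.9 at 11 d and 10.7, 11.8 and 15.0 at 14 d. The groups overlapped at every time, and the log2 change at 11 d, -0.61 (SE 0.20, adjusted p = 0.0278), was called. The call was lost without unirradiated replicate 1 (adjusted p = 0.139) or 2 (0.0511) and without 11 d replicate 1 (0.114) or 2 (0.102). Adamts20 measured 1.24, 1.77 and 1.73 CPM without irradiation, 1.87, 0.721 and 0.917 at 8 d, then 0.423, 0.797 and 0.415 at 11 d and 0.630, 2.15 and 0.709 at 14 d. Only its 11 d libraries lay wholly below the unirradiated ones; the log2 change there was -1.53 (SE 0.52, adjusted p = 0.032), and the call was lost without unirradiated replicate 2 (adjusted p = 0.0797) or 3 (0.0707) and without 11 d replicate 1 (0.112) or 3 (0.0962). Adamts10, which binds the microfibril protein fibrillin, measured 56.7, 47.8 and 39.8 CPM without irradiation, 41.6, 33.0 and 41.6 at 8 d, then 22.1, 27.0 and 27.9 at 11 d and 28.9, 36.0 and 25.8 at 14 d. Its 11 d and 14 d libraries were all below the unirradiated ones, with a log2 change of -0.31 (SE 0.17, adjusted p = 0.205), -0.91 (SE 0.17, adjusted p = 0.00087) and -0.67 (SE 0.17, adjusted p = 0.00573).

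Timp1, the inducible inhibitor, rose at every time, and its log2 change at 8 d was the largest of all members. It measured 6.52, 4.94 and 5.89 CPM without irradiation, 46.1, 69.5 and 38.8 at 8 d, then 75.5, 70.4 and 75.3 at 11 d and 58.7, 37.7 and 67.1 at 14 d. No irradiated library came near the unirradiated ones, and the log2 change was 3.15 (SE 0.24, adjusted p = 2.26e-06), 3.67 (SE 0.25, adjusted p = 3.27e-07) and 3.23 (SE 0.24, adjusted p = 3.68e-07), an 8.89-, 12.7- and 9.41-fold increase. Timp3, the matrix-bound inhibitor, measured 1769, 1839 and 1069 CPM without irradiation, 916, 792 and 935 at 8 d, then 743, 918 and 1080 at 11 d and 743, 877 and 738 at 14 d. Unirradiated replicate 3 stood well below the other pair and under 11 d replicate 3, so the groups overlapped at 11 d and not at 8 or 14 d. The log2 change was -0.82 (SE 0.20, adjusted p = 0.0086), -0.77 (SE 0.20, adjusted p = 0.00798) and -0.99 (SE 0.20, adjusted p = 0.00127), and -1.04, -0.98 and -1.20 without unirradiated replicate 3. The gene lies within Syn3, on the opposite strand, and shares 21.3% of its exon sequence with it; Syn3 had means of 6.64, 4.41, 5.66 and 5.86 CPM and was not called.

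Timp2, which also helps Mmp14 to activate the Mmp2 precursor, measured 437, 418 and 411 CPM without irradiation, 357, 309 and 330.0 at 8 d, then 339, 313 and 339 at 11 d and 422, 453 and 377 at 14 d. The libraries of 8 and 11 d lay below both the unirradiated and the 14 d libraries. The log2 change was -0.35 (SE 0.12, adjusted p = 0.0444), -0.35 (SE 0.12, adjusted p = 0.0282) and -0.02 (SE 0.12, adjusted p = 0.926), so the decrease was small where called. At 8 d the call was lost without any 1 of unirradiated replicates 1, 2 and 3 (adjusted p = 0.137, 0.0906 and 0.0652) and without 8 d replicate 2 (0.12) or 3 (0.103), and also with library size alone (0.107), no filter (0.0629) and only the groups compared (0.111). At 11 d it was lost without any 1 of the 3 unirradiated libraries (0.0886, 0.0576 and 0.0507) or of the 3 libraries of 11 d (0.0567, 0.0921 and 0.0586). Timp4 was low, between 0.540 and 2.12 over all libraries, and was not called (0.35 (SE 0.43, adjusted p = 0.599), -0.42 (SE 0.45, adjusted p = 0.493) and -0.38 (SE 0.44, adjusted p = 0.539)).

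The members that were tested and never called were Mmp11, Mmp16, Mmp17, Mmp23, Mmp24, Adamts1, Adamts3, Adamts6, Adamts9, Adamts13, Adamts14, Adamts15, Adamts17 and Timp4. Over single libraries, Adamts1 ranged from 43.4 to 81.6 CPM and Adamts9 from 21.4 to 42.3, the highest levels among them. Adamts13, which cuts von Willebrand factor, ranged from 12.4 to 30.2 CPM, and Adamts15, an aggrecanase, from 10.4 to 27.5. Mmp11 lay between 7.76 and 12.5 CPM, Mmp23 between 5.05 and 10.54, Mmp24 between 4.94 and 7.49, and Adamts14 between 6.22 and 13.3. The rest were low: Mmp16 (0.888 to 2.46 CPM), Mmp17 (0.667 to 1.77), Adamts3 (1.48 to 2.79), Adamts6 (1.14 to 2.59) and Adamts17 (2.47 to 5.53). A missed threshold does not show that these genes had equal levels. Besides the 4 cluster genes, the filter removed Mmp21, Adamts16, Adamts18 and Adamts19, with 6, 4, 15 and 60 counts over the 12 libraries.

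Per kilobase of exon, the scale on which genes can be compared with each other, inhibitors led in unirradiated lung, and the order later depended on the exons counted in the length. With exons of transcripts that have a RefSeq mRNA record, Timp3 was highest in each group, at 330.1 ± 90.2 CPM per kb (SD, n = 3) without irradiation and 166 ± 16.7 at 14 d. Timp2 came second without irradiation at 114 ± 3.69, ahead of Mmp14 at 27.7 ± 4.29 and Mmp2 at 18.0 ± 2.05. At 14 d Mmp14 reached 119 ± 8.94 CPM per kb, within the spread of Timp2 at 112 ± 10.2. Timp1 was at 6.55 ± 0.897 without irradiation and 83.5 ± 3.23 at 11 d. Mmp12 moved from place 22 of the 46 to place 7, with 1.35 ± 0.219 CPM per kb without irradiation and 26.9 ± 5.53 at 14 d, next to Mmp3 at 27.6 ± 7.26. Mmp8 moved from place 24 to place 9. With all annotated exons, a choice added after seeing the data, Timp3 was still first without irradiation (191 ± 52.3), but at 14 d Timp2 had the highest mean at 107 ± 9.76, within the spread of Timp3 at 96.5 ± 9.67. Mmp14, at 51.7 ± 3.89, was then below both and below the mean of Timp1 at 61.4 ± 17.1.

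**Figure D4:**
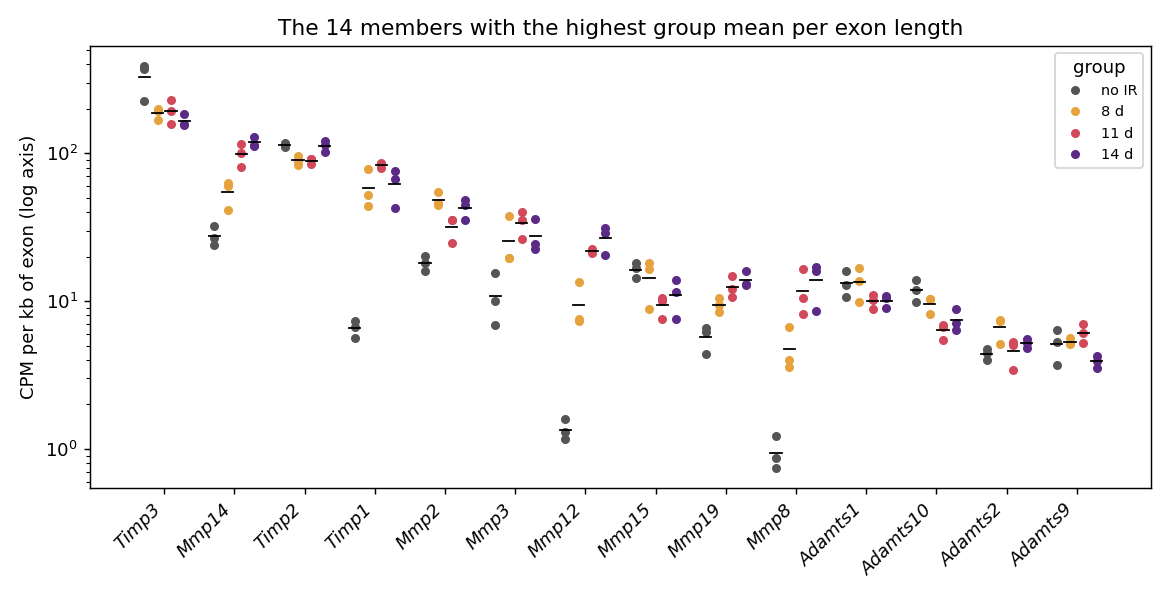
Level per exon length, in CPM per kb on a log axis, of the 14 members with the highest group means; points are the 3 libraries of a group without irradiation (grey) and at 8 d (orange), 11 d (red) and 14 d (purple), and lines their mean. With these lengths, from RefSeq mRNA exons, Timp3 is highest in every group and Mmp14 reaches the level of Timp2 by 14 d, while with all annotated exons the mean of Timp2 is the highest at 14 d; Timp1, Mmp12 and Mmp8 cross the widest ranges.

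Summed over each family on this scale, the Mmp total was higher in every irradiated library than in every unirradiated one. The Timp totals of 11 and 14 d overlapped with the unirradiated ones and those of 8 d lay just below them, but only through unirradiated replicate 3, at 344. Unirradiated replicates 1 and 2, at 500 and 508, lay above every irradiated library, of which the highest was 405. The Mmp sum was 96.6 ± 3.02 CPM per kb (SD, n = 3) without irradiation, 186 ± 16.1 at 8 d, then 237 ± 28.5 at 11 d and 273 ± 10.1 at 14 d. The Timp sum was 451 ± 92.5, 335 ± 6.89, 366 ± 36.1 and 341 ± 8.70, and the Adamts sum 54.6 ± 4.23, 52.7 ± 5.38, 45.1 ± 1.12 and 44.9 ± 2.60. The ratio of Mmp to Timp was 0.188, 0.188 and 0.291 in the unirradiated libraries, 0.549, 0.607 and 0.508 at 8 d, then 0.805, 0.607 and 0.549 at 11 d and 0.829, 0.747 and 0.833 at 14 d. All irradiated libraries had a higher ratio than all unirradiated ones, and all 14 d libraries than all 8 d ones; the highest unirradiated value was that of replicate 3, the library low in Timp3. With all annotated exons the 8 d Timp totals also overlapped with the unirradiated ones, and the mean ratios were 0.249 ± 0.0511, 0.560 ± 0.0300, 0.587 ± 0.105 and 0.699 ± 0.0332. The ratio of Adamts to Timp stayed between 0.103 and 0.177 over all libraries. These sums are scores over the members and were given no test, and a ratio of transcripts is not a ratio of active enzyme to inhibitor.

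The make-up of the inhibitor total differed between groups as well. Timp1 was 1.51 ± 0.420% (SD, n = 3) of the Timp sum without irradiation, 17.5 ± 5.63% at 8 d, then 22.9 ± 2.35% at 11 d and 18.2 ± 5.45% at 14 d. Timp3 was 72.5 ± 5.83%, 55.7 ± 4.55%, 52.5 ± 4.88% and 48.8 ± 3.62%. Within the Mmp sum, Mmp12 went from 1.40 ± 0.251% without irradiation to 9.80 ± 1.69% at 14 d, and Mmp14 from 28.6 ± 3.69% to 43.5 ± 2.82%. With all annotated exons these shares were 0.915 ± 0.142% and 7.30 ± 1.35% for Mmp12 and 16.2 ± 2.50% and 27.99 ± 2.56% for Mmp14, and Mmp2, at 22.1 ± 2.59%, was then above Mmp14 without irradiation.

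**Figure D5:**
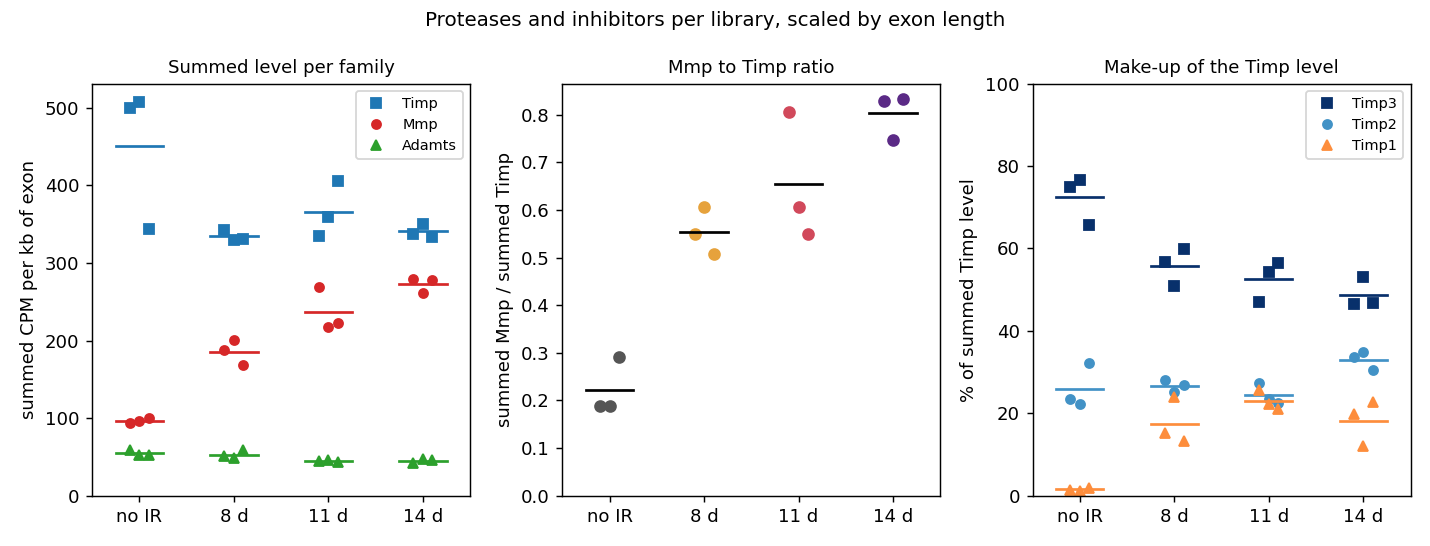
Left, summed CPM per kb of exon of the Timp (squares), Mmp (circles) and Adamts genes (triangles) in each library; middle, the ratio of the Mmp sum to the Timp sum; right, the share of the Timp sum taken by Timp3, Timp2 and Timp1 in percent. Points are the 3 libraries of a group and lines their mean. The mean Mmp sum goes from 96.6 to 273, the ratio is 0.291 or less in the unirradiated libraries and 0.508 or more in the irradiated ones, and Timp1 takes 12.2% or more of the Timp sum after irradiation against 1.94% or less without it.

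Differences between the irradiated groups were tested directly. From 8 to 11 d, 4 members were higher and 0 lower, beside 2.14% of all tested genes in either direction and 1.75% higher: Mmp12, Mmp8, Mmp25 and Mmp14, with log2 changes of 1.22 (SE 0.22, adjusted p = 0.0153), 1.31 (SE 0.31, adjusted p = 0.0452), 1.14 (SE 0.27, adjusted p = 0.043) and 0.85 (SE 0.18, adjusted p = 0.028). Each of these 4 calls was lost without some library. Mmp12 was lost without 8 d replicate 3 (log2 change 1.06, adjusted p = 0.106) or 11 d replicate 1 (1.202, 0.0737). Mmp14 was lost without 8 d replicate 3 (0.68, 0.149), 11 d replicate 1 (0.72, 0.161) or 11 d replicate 2 (0.83, 0.0663), and with only the groups compared (0.86, 0.061). Mmp8 was lost without 8 d replicate 1 (1.204, 0.136) or 3 (1.14, 0.223), without 11 d replicate 1 (0.98, 0.272) or 3 (1.38, 0.0601), with library size alone (1.22, 0.0531) and with only the groups compared (1.32, 0.0567). Mmp25 was lost without any 1 of the 6 libraries (1.0025 to 1.26, 0.0576 to 0.224), with library size alone (1.04, 0.0589), with limma-voom (1.14, 0.0546) and with only the groups compared (1.14, 0.0592). Without 8 d replicate 3, and likewise without 11 d replicate 1, 0 members were called; without 8 d replicate 1, 11 d replicate 2 or 11 d replicate 3 there were 2 each, and without 8 d replicate 2 there were 8. With library size alone, under which the median of all genes was -0.10 in place of -0.01, 2 members were higher and 1 lower.

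From 8 to 14 d, 6 members were higher and 1 lower, beside 15.4% of all genes in either direction, 8.10% higher and 7.29% lower. Mmp12 (1.51, SE 0.22, adjusted p = 0.000498), Mmp14 (1.11, SE 0.18, adjusted p = 0.000909), Mmp25 (1.31, SE 0.27, adjusted p = 0.00409) and Mmp8 (1.54, SE 0.31, adjusted p = 0.00413) were higher in every 14 d library than in every 8 d library, and no alternative setting or left-out library ended these 4 calls. Mmp10 (1.58, SE 0.42, adjusted p = 0.0199) and Mmp19 (0.57, SE 0.17, adjusted p = 0.04) were also higher. The call of Mmp10 was lost without 8 d replicate 1 (adjusted p = 0.0688) or 3 (0.0912), without 14 d replicate 1 (0.0716) or 3 (0.0849), and with only the groups compared in the fit (0.0672), and its log2 change was 2.17 without 8 d replicate 2. The call of Mmp19 was lost without 8 d replicate 1 (0.0828) or 3 (0.149) and without 14 d replicate 1 (0.0732), 2 (0.141) or 3 (0.0558), and with library size alone (0.0664). Mmp9 fell, its log2 change being -1.57 (SE 0.36, adjusted p = 0.00919), and its 14 d libraries lay below all 8 d ones. From 11 to 14 d edgeR called 0 of the 38 members, beside 1.80% of all genes in either direction and 0.813% higher; 7 had an unadjusted p below 0.05 and DESeq2 called 3. Without 11 d replicate 1 edgeR called 1.

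Other genes that act on the same enzymes were counted as well, and each count is to be read beside the 23.6%, 37.2% and 38.9% of all tested genes called at 8, 11 and 14 d. Plasmin activates several Mmp precursors, and of 6 tested genes of plasminogen activation 3, 4 and 3 were higher at 8, 11 and 14 d and 0 lower. Plau, the urokinase activator, went from 4.65 CPM without irradiation to 32.6 at 11 d (log2 change 2.81, SE 0.23, adjusted p = 1.17e-06). Among 9 other inhibitors, anchors and enhancers, 2, 2 and 4 were higher and 2, 3 and 3 lower. Reck, a membrane-anchored inhibitor of Mmp2, Mmp9 and Mmp14, fell from 48.7 CPM to 18.8 at 8 d and 13.8 at 14 d (log2 change -1.82 at 14 d, SE 0.19, adjusted p = 4.13e-06). The broad protease inhibitor A2m rose from 0.509 to 5.22 CPM (3.35, SE 0.47, adjusted p = 5.28e-05), and Pcolce2, an enhancer of procollagen processing, fell from 145 to 32.2 (-2.17, SE 0.24, adjusted p = 6.65e-06). Median log2 changes of these 2 lists were 0.59, 0.80 and 0.92, and 0.01, 0.05 and -0.18.

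Related protease families were counted in the same way. Of 7 ADAMTS-like genes, which lack the protease domain, 0 were higher and 1, 4 and 3 lower (14.3%, 57.1% and 42.9% of the list, medians -0.33, -0.77 and -0.80), among them Adamtsl3, from 19.3 to 9.83 CPM at 14 d (-0.98, SE 0.15, adjusted p = 0.00014). Of 9 ADAM sheddases, 3, 2 and 5 were higher and 1 lower at each time (44.4%, 33.3% and 66.7% of the list, medians 0.09, 0.28 and 0.33). Adam8, a leukocyte sheddase, rose from 9.01 to 48.7 CPM (2.43, SE 0.28, adjusted p = 8.76e-06). Of 7 tested cathepsins and other matrix-degrading enzymes, 5, 6 and 7 were higher and 0 lower (medians 0.85, 2.04 and 2.73). Ctss, an elastin-cutting cathepsin of macrophages, went from 545 to 10748 CPM (4.30, SE 0.32, adjusted p = 3.4e-07), while the neutrophil proteases Elane, Prtn3 and Ctsg had too few counts to test (3, 36 and 25 over all libraries).

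Genes for known substrates rose more often than they fell: of 16 tested, 8, 7 and 8 were higher and 2, 4 and 2 lower. Their median log2 changes were 0.59, 0.20 and 0.44. Over all tested genes, 13.0%, 19.4% and 20.0% were called higher at 8, 11 and 14 d, and 10.6%, 17.8% and 18.9% lower. Col1a1, a chain of type I collagen, went from 95.2 CPM without irradiation to 275 at 14 d (1.53, SE 0.24, adjusted p = 0.000166), and fibronectin, Fn1, from 269 to 1770 (2.72, SE 0.27, adjusted p = 2.88e-06). The proteoglycan Vcan, a substrate of Adamts1, Adamts4 and Adamts5, rose from 6.26 to 29.4 CPM (2.23, SE 0.19, adjusted p = 1e-06). Elastin, Eln, the substrate of Mmp12 and chosen for mention after its values were seen, was higher at 8 d (0.65, SE 0.14, adjusted p = 0.00503) and 14 d (0.60, SE 0.14, adjusted p = 0.00431) and not called at 11 d (0.13, SE 0.14, adjusted p = 0.499). Vwf, the substrate of Adamts13, fell from 396 to 126 CPM (-1.65, SE 0.24, adjusted p = 7.84e-05).

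Markers of cell types that make these enzymes moved in the same libraries, and their part in the member changes was not tested. At 8, 11 and 14 d, 23.6%, 37.2% and 38.9% of all tested genes were called. Each marker count, here and below, is to be read beside these shares. Lung identity was plain, with surfactant gene Sftpc at 21110 CPM without irradiation. Of 10 macrophage markers, 5, 8 and 10 were higher at 8, 11 and 14 d and 1, 0 and 0 lower, and their summed level was 7945 to 8712 CPM in the unirradiated group, then 6509 to 7563 (8 d), 9802 to 14876 (11 d) and 18658 to 23987 (14 d). Of 8 alveolar macrophage markers, 2, 2 and 1 were higher and 6, 5 and 4 lower, with sums of 1219 to 1472, 698 to 802, 926 to 1144 and 842 to 999 CPM. Of 5 tested neutrophil markers, 2, 2 and 1 were higher and 0 lower (40%, 40% and 20% of those tested). Their sums were 32.3 to 81.7, 69.8 to 224, 75.8 to 122 and 66.2 to 69.5 CPM. Camp, Mpo and Ngp, made by developing neutrophils, had too few counts to test. Of the 9 neutrophil markers listed, 8 were among the symbols of the data, and Ly6g was not analysed here. No marker in these 3 lists was at 0 in all libraries.

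Of 5 T cell markers, 5 were higher at each time, with sums of 24.0 to 30.1 CPM in the unirradiated group, then 71.7 to 101 (8 d), 106 to 129.96 (11 d) and 90.3 to 161 (14 d). Of 6 alveolar type 1 markers, 0, 1 and 0 were higher and 3, 4 and 5 lower, with sums of 5301 to 5956, 3470 to 4080, 2890 to 3903 and 2334 to 2813 CPM. Of 6 alveolar type 2 markers, 0 were higher and 2, 4 and 4 lower, with sums of 31264 to 34768, 24248 to 27093, 17634 to 25298 and 16707 to 18701 CPM. Of 5 tested airway markers, 1, 0 and 1 were higher and 1, 1 and 2 lower, with sums of 13620 to 25404, 9800 to 10212, 5416 to 9525 and 4448 to 6854 CPM. Mmp28 fell in the libraries in which these epithelial sums were lower. The macrophage sum given above was lower at 8 d and higher at 11 and 14 d than without irradiation. The part of either in the change of Mmp28 was not tested.

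In the stromal and vascular lists every called marker was lower. Of the fibroblast list 11.1%, 55.6% and 44.4% were called, and of smooth muscle and pericytes 14.3%, 57.1% and 85.7%. The endothelial and mesothelial shares were above those of all tested genes (23.6%, 37.2% and 38.9%) at every time. Of 9 endothelial markers, 0 were higher and 5, 8 and 9 lower, with sums of 4245 to 4377 CPM in the unirradiated group, then 2552 to 2756 (8 d), 1610 to 2311 (11 d) and 1066 to 1365 (14 d). Of 9 fibroblast markers, 0 were higher and 1, 5 and 4 lower, with sums of 891 to 998, 618 to 720, 472 to 581 and 417 to 598 CPM. Of 7 markers of smooth muscle and pericytes, 0 were higher and 1, 4 and 6 lower, with sums of 612 to 740, 457 to 659, 361 to 486 and 313 to 381 CPM. Of 5 mesothelial markers, 0 were higher and 2, 4 and 5 lower, with sums of 388 to 461, 259 to 352, 206 to 289 and 140 to 193 CPM. No marker of these lists was at 0 in all libraries. The part of these lists in the lower levels of Timp3, Reck, Adamts5 and Adamts10 was not tested. Mmp2 and Adamts12, named above as genes of stromal and mesenchymal cells, were higher at every time. The part of these lists there was not tested either.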

How the data were processed

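Total RNA of mouse lung was sequenced with a directional library kit, per the labels' protocols. The authors deposited whole-number counts per gene symbol for each library; TopHat and the mouse build mm10 are named per the submitters' processing notes, while no source used here gives the counting program, annotation or strand setting. Each of the 12 tables holds 23282 lines; counts of 35 symbols on more than 1 line were summed, which left 23238 symbols, and 0 columns of per-sample values went unused. Totals of 19624554 to 27765751 counts per library set the precision.

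Library sizes were scaled by TMM, genes with low counts removed (filterByExpr, 16484 kept), and 1 model with all 4 groups was fitted with edgeR 4.0.16 in R 4.3.3, with quasi-likelihood tests and Benjamini-Hochberg adjustment over all genes tested; the fit was tested on simulated data. CPM are counts relative to the scaled library size. Exon lengths and overlaps came from GENCODE M21, and promoter windows from RefSeq. Alternatives used DESeq2 1.42.0, limma-voom (limma 3.58.1), library size alone, scaling by the median of ratios, the fit without a filter, at least 10 counts in each sample of a group, the replicate number as a block, only the groups compared, Rn45s and haemoglobin genes removed, and each library left out in turn. Every called member was named with values, per library where a group mean reached 1 CPM; in each related list up to 5 genes with the lowest p for any difference could be given values. Same-numbered replicates were not treated as paired: 5 of 18 pairs had deviations correlated above 0.1, and in no comparison did all 3. The members and lists were chosen with earlier results of these data known.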

Additional observations from a re-analysis of the deposited data

Results flagged for a closer look

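The members' effects at 8 d differed from those at a later time by a direct test (edgeR quasi-likelihood, adjusted over all genes tested) in the cases that follow. From 8 to 11 d the log2 change was 1.22 for Mmp12 (adjusted p = 0.0153), 0.85 for Mmp14 (0.028), 1.14 for Mmp25 (0.043) and 1.31 for Mmp8 (0.0452). From 8 to 14 d it was 1.58 for Mmp10 (adjusted p = 0.0199), 1.51 for Mmp12 (0.000498), 1.11 for Mmp14 (0.000909), 0.57 for Mmp19 (0.04), 1.31 for Mmp25 (0.00409) and 1.54 for Mmp8 (0.00413). Mmp9 was the only member called lower from 8 to 14 d, with -1.57 (adjusted p = 0.00919).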

How the results depend on the processing

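Of 65 member calls, 48 were kept under every alternative, and no called value changed sign. From 8 to 11 d DESeq2 called 7 members and 857 genes, and fits restricted to the groups compared called 1 and 143; leaving out 1 library gave 0 to 8 members and 2 to 545 genes. From 11 to 14 d DESeq2 called 3 members and 827 genes, and leaving out 1 library gave 0 to 1 members and 13 to 681 genes. Leaving out 1 library gave 4 to 6 members lower at 11 d in place of 8, 2593 to 3544 genes called at 8 d, and 1392 to 2548 from 8 to 14 d. The Mmp to Timp ratio at 14 d was 0.699 with all annotated exons. With 1 library left out, uncalled log2 changes that crossed 0 ranged from -0.21 to 0.0943 for Adamts8 at 8 d, from -0.37 to 0.0744 for Mmp15 at 8 d, from -0.0438 to 0.23 for Adamts2 at 11 d, from -0.46 to 0.42 for Mmp9 at 14 d and from -0.0800 to 0.0503 for Timp2 at 14 d. The same-numbered replicates correlated by -0.35 to 0.29, and 8 of 18 matched best with their own number; for 8 d and unirradiated lung all 3 did, at 0.164, 0.0895 and 0.168. With the replicate number as a block, 13 members were higher and 2 lower at 8 d, 12 and 8 at 11 d, and 12 and 5 at 14 d, with 3, 0 and 7 called from 8 to 11, 11 to 14 and 8 to 14 d. With the block, Timp2 at 8 d (adjusted p = 0.061), Mmp9 at 11 d (0.0665) and Mmp8 from 8 to 11 d (0.0765) were not called. For all of these the cause was not tested. The 8 members below the filter had at most 60 counts each over the 12 libraries and were not tested.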
